A study of Homo sapiens with 12 samples.

Results

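The S100 genes encode small calcium-binding proteins, and 10 of them were followed here in 2 human colorectal cancer cell lines. The members were taken by gene symbol: S100A2, S100A3, S100A4, S100A6, S100A10, S100A11, S100A13, S100A14, S100A16 and S100P. Each symbol matched 1 Ensembl gene, so the set holds 10 of the 62656 genes in the count table. RNA was sequenced from HCT116 and LoVo, established lines from colorectal tumours, with 3 libraries in each of 4 groups. The groups were HCT116 with overexpression (OE) of the long non-coding RNA SLERT, HCT116 control cells, LoVo with knockdown (KD) of SLERT, and LoVo control cells. The HCT116 controls carry an empty vector and the LoVo controls a control hairpin, going by the column headers of the deposited tables. The labels name no clone number, no hairpin sequence and no separate cultures, so a p-value here reflects only how these libraries spread, and that spread may be technical.

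S100 proteins carry a pair of EF-hand loops that bind calcium, and most work as dimers that change shape with calcium and then hold a partner protein. Annexins, non-muscle myosin, ezrin and the cell-surface receptor RAGE are among their known partners. Several members, S100A4 and S100P above all, are studied in colorectal and other carcinomas for their association with invasion and metastasis. Most S100 genes of the human genome sit in a cluster on the long arm of chromosome 1, whereas S100P lies apart on chromosome 4.

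Total counts per library were between 14.46 and 17.23 M. As a check of the labels, SNORA5C, a snoRNA that forms an end of SLERT, had 1926 counts over the 3 HCT116 OE libraries against 16 over the 3 HCT116 controls. TBRG4, its host gene, was higher in HCT116 OE as well (log2 fold change 0.66). It stood at 255 ± 13.8 and 162 ± 10.1 normalised counts scaled to library size (CPM) in OE and control (SD, n = 3 each). In LoVo SNORA5C had 37 counts over the KD libraries and 37 over the controls, and TBRG4 stood at 236 ± 16.6 and 225 ± 2.91 CPM (SD, n = 3 each). A fall of SLERT was therefore not visible in this readout, SNORA5C being also cut from the introns of TBRG4. Nor did the few counts of SNORA5C exclude a fall. Its log2 fold change in LoVo was -0.02, with an edgeR interval from -0.92 to 0.87. KD below stands for the libraries labelled so. Epithelial markers were present in both lines, with EPCAM at 80.0 and 80.4 FPKM (reads scaled by gene length and by library size) in HCT116 OE and control, and 152 and 116 FPKM in LoVo KD and control. The intestinal markers VIL1 and CDX1 were near 0 or at 0 counts in HCT116. CDH17 and KRT20 were low there too, with group means of at most 0.156 and 0.778 FPKM. In bulk RNA, fewer cells of a type and less RNA per cell cannot be told apart.

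Of the 10 members, 9 lie within about 1637 kb of each other on chromosome 1, all on the minus strand and, by their starts, in the order S100A10, S100A11, S100A6, S100A3, S100A4, S100A2, S100A16, S100A14 and S100A13 (GRCh38, GENCODE v29). S100A10 (ENSG00000197747) spans 151982915 to 151994390, S100A14 (ENSG00000189334) spans 153614255 to 153616986, and S100A16 (ENSG00000188643), its direct neighbour, spans 153606886 to 153613145. S100P (ENSG00000163993) spans 6693069 to 6697170 on the plus strand of chromosome 4. These 4 genes passed the test in LoVo, and their promoter windows are shown for that reason, 5′ to 3′ on the strand of the gene, from 250 bases before to 50 bases after the annotated start (RefSeq, GRCh38.p14). The windows are chr4:6693628-6693927 (plus strand), chr1:153616276-153616575, chr1:151993810-151994109 and chr1:153613088-153613387 (all minus strand, and for S100A16 the first of its 2 annotated starts), with capitals at motif matches.
S100P: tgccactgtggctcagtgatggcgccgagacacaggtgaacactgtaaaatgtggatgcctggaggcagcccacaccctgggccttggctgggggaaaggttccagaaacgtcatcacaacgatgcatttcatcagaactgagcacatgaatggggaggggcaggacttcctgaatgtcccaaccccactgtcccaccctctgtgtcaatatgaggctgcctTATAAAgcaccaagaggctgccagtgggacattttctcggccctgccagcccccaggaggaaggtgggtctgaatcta
S100A14: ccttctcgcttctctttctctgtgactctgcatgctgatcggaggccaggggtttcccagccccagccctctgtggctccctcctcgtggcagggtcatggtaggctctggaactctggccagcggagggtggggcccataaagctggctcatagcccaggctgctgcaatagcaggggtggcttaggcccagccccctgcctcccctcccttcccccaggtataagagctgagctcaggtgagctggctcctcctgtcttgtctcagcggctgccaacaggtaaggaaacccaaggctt
S100A10: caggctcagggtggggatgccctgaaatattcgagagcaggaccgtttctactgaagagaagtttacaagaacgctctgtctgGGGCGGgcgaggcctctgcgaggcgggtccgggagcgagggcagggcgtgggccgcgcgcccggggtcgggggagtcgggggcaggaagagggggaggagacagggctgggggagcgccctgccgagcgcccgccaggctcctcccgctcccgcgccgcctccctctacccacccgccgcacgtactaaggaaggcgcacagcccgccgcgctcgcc
S100A16: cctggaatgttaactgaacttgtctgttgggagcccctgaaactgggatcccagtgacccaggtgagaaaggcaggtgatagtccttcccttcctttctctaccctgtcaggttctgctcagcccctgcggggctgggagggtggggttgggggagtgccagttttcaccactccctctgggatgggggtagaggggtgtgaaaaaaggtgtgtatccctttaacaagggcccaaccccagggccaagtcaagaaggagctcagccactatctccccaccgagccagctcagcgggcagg
The motifs searched on both strands were TATAAA (the TATA box), GGGCGG (a GC box) and TGANTCA (an element bound by FOS and JUN proteins), none of which contains another. S100P held a TATA box at positions -28 to -23 from its start, S100A10 held a GC box at positions -167 to -162 from its start, and the windows of S100A14 and S100A16 shown above held no match. All 10 members were found in the promoter table, with 14 windows in all. TATAAA stood in 3 of the 14 windows and in 11.5% of all 35116 promoters, GGGCGG in 6 of 14 and in 45.0%, and TGANTCA in 2 of 14, those of S100A2 and S100A3, and in 7.71%. No motif stood in more than 1 of the 4 windows shown. The window of the second S100A16 start, not shown, held a GC box at positions -45 to -40, as S100A10 held one. A match describes the sequence only, and whether any factor binds there was not measured.

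The levels of the members fell into 2 bands in each line. S100A6 (calcyclin, which binds annexins and the calcyclin-binding protein) was the highest member in all 4 groups, at 263 ± 23.9 FPKM in HCT116 OE, 255 ± 49.9 in HCT116 control, 288 ± 28.5 in LoVo KD and 265 ± 28.7 in LoVo control (SD, n = 3 each). It ranked between 74 and 76 of the 38828 genes in the FPKM table. S100A10, S100A11, S100A14, S100A16 and S100A4 followed with group means from 30.4 to 271 FPKM. S100A2, S100A3 and S100A13 made up the low band, with group means from 0.720 to 4.07 FPKM. S100P belonged to the high band in LoVo and to the low one in HCT116.

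In HCT116 OE the order after S100A6 was S100A11, S100A10, S100A14, S100A16, S100A4, S100A2, S100A3, S100A13 and S100P, and S100A2 and S100A3 were the only neighbours in it whose libraries overlapped. In HCT116 control S100A14 stood before S100A10, at 94.8 ± 6.48 and 94.3 ± 6.66 FPKM, and these neighbours overlapped. In LoVo KD the order was S100A6, S100A10, S100P, S100A14, S100A11, S100A16, S100A4, S100A13, S100A2 and S100A3, with overlap between S100A6 and S100A10, between S100P and S100A14, and between S100A13 and S100A2. In LoVo control S100P stood between S100A14 and S100A16, and overlapped with both, and the 3 lowest members overlapped in a chain. The summed level of the 10 members ran from 1167 to 1358 FPKM in LoVo KD libraries, against 845 to 1015 FPKM in LoVo controls. In HCT116 it ran from 648 to 751 FPKM with OE, against 636 to 793 FPKM in controls.

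**Figure D1:**
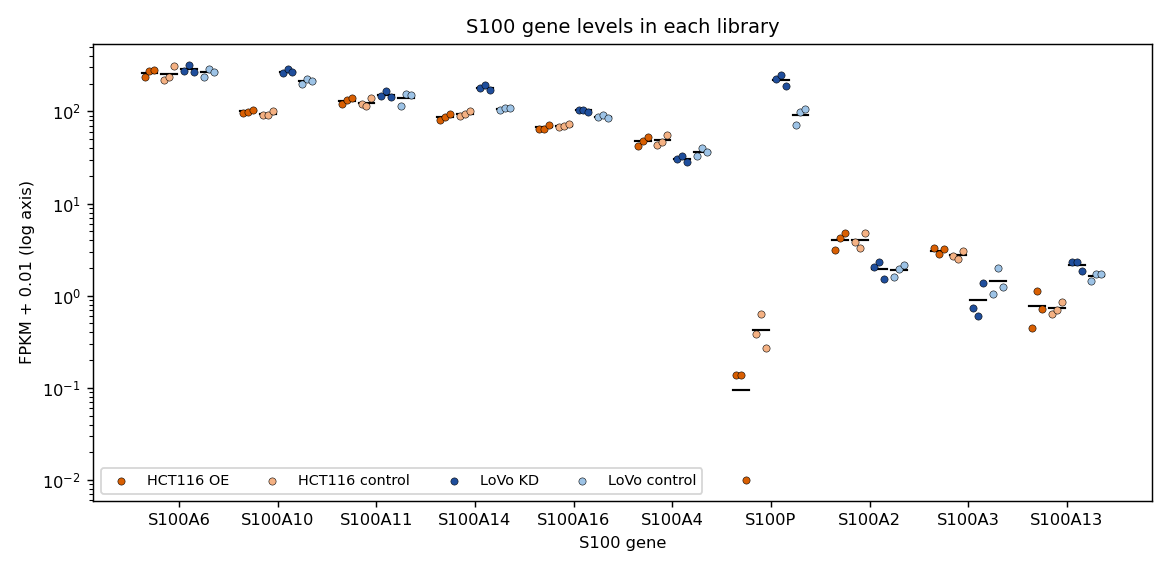
FPKM of each S100 gene in each of the 12 libraries (points; log axis, with 0.01 added), with HCT116 OE, HCT116 control, LoVo KD and LoVo control side by side and the group mean as a line. S100P is the member that separates the lines most, with group means of 221 and 92.2 FPKM in LoVo KD and control, while all HCT116 libraries lie below 1 FPKM.

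The comparison within LoVo asked which S100 genes differ with the SLERT KD label. S100P, S100A14, S100A10 and S100A16 were higher in LoVo KD, and no member was called lower. All 10 members passed the filter on low counts and entered the test. The 4 called members are 40% of them, all upward, beside 26.3% of all 16253 genes tested called in either direction, 12.6% called higher and 13.7% called lower (edgeR's quasi-likelihood test, Benjamini-Hochberg adjusted p under 0.05). The median log2 fold change of the members was 0.21 and that of all genes tested 0.00049. With 10 members, 4 calls against a background of that size are a small count, and the values of the single genes carry the description.

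S100P, which binds ezrin and the receptor RAGE and is made in many carcinomas, had the largest change. It measured 109, 118 and 89.4 CPM in the LoVo KD libraries, against 33.2, 46.4 and 49.6 CPM in the LoVo controls. Every KD library lay well above every control, and the spread within each group was wide, with SDs of 14.7 and 8.67 CPM. The log2 fold change was 1.29 (SE 0.11, 95% interval 1.07 to 1.52), a 2.45-fold rise, with an edgeR adjusted p of 5.71e-09. Leaving out any single library kept it between 1.14 and 1.41. By level per length, it moved to 221 ± 30.5 FPKM in KD, against 92.2 ± 18.2 FPKM in control (SD, n = 3 each), and its rank among all genes was 104 in KD and 264 in control.

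S100A14, an epithelial S100 protein, measured 236, 249 and 220 CPM in the KD libraries, against 131, 136 and 139 CPM in the controls. The control libraries were tightly grouped and none came near the KD range. The log2 fold change was 0.80 (SE 0.062, 95% interval 0.67 to 0.93), a 1.74-fold rise, with an edgeR adjusted p of 1.56e-09, the smallest p of the members. S100A16, transcribed from the next gene on the same strand, measured 180, 179 and 170 CPM in KD, against 145, 153 and 145 CPM in control. These groups did not overlap either, but the gap was smaller, with a log2 fold change of 0.26 (SE 0.060, 95% interval 0.14 to 0.38, edgeR adjusted p = 0.00231). The intervals of these neighbours did not overlap.

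Epithelial markers moved with the KD label as well. Of 10 such markers 8 were called in LoVo by edgeR, beside 26.3% of all genes tested, with EPCAM and CDH17 higher in KD and KRT8, KRT18, KRT19, KRT20, CDX2 and VIL1 lower. Their summed level ran from 1599 to 1689 FPKM in LoVo KD, against 1823 to 1917 FPKM in LoVo control, and in HCT116 from 1117 to 1186 FPKM in OE, against 1110 to 1154 FPKM in control. In HCT116, 0 of the 7 markers tested were called by edgeR, beside 0.914% of all genes tested. The 6 leukocyte markers summed to at most 2.19 FPKM in any library, with TYROBP at 0 counts and LYZ at 104 counts over the LoVo KD libraries and 120 over the LoVo controls. The 8 stromal markers summed to 0.372 to 0.576 FPKM in LoVo KD, against 2.11 to 2.29 FPKM in LoVo control, and COL3A1 was called lower. In HCT116 they summed to 7.61 to 8.33 FPKM in OE, against 8.67 to 9.33 FPKM in control. Most of that was COL1A1, with means of 7.62 FPKM in OE and 8.86 FPKM in control. The part of these markers in the S100 changes was not tested.

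S100A10, also called p11, is the member that does not bind calcium, and it forms a tetramer with annexin A2 at membranes. It measured 269, 293 and 271 CPM in the KD libraries, against 199, 227 and 214 CPM in the controls. All KD libraries were above all controls, and the log2 fold change was 0.38 (SE 0.062, 95% interval 0.25 to 0.51), a 1.30-fold rise with an edgeR adjusted p of 8.89e-05. On log2(FPKM + 1) without a filter on low values the call was lost (limma adjusted p = 0.0606, log2 fold change 0.35). ANXA2, the gene of its partner, stood at 760 ± 6.72 CPM in KD and 760 ± 11.9 CPM in control (edgeR adjusted p = 0.995, 95% interval of the log2 fold change -0.11 to 0.10).

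**Figure D2:**
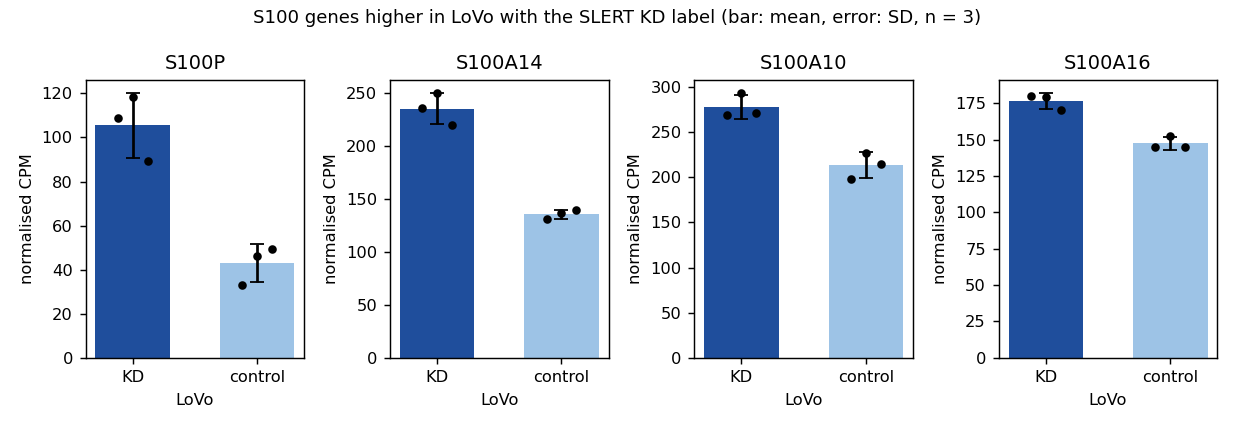
Normalised CPM of the 4 S100 genes that passed the test in LoVo, with KD left of control; bars are means of 3 libraries, error bars the SD and points the libraries, on axes that start at 0. In each panel every KD library lies above every control, by the widest factor for S100P (105 ± 14.7 against 43.1 ± 8.67 CPM). The genes were picked by the test of these same libraries, so the gap between the groups is no separate evidence.

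The other 6 members did not pass the test in LoVo. S100A4, known as metastasin for its association with metastasis and a partner of non-muscle myosin, measured 29.5, 31.1 and 26.9 CPM in KD, against 30.3, 37.4 and 34.1 CPM in control. The groups overlapped through KD library 2 and control library 1, and the log2 fold change of -0.22 had an edgeR adjusted p of 0.0843. It passed when either of those was left out (log2 fold change -0.26 with adjusted p = 0.0427 without KD 2, and -0.30 with adjusted p = 0.0442 without control 1). S100A6 had 272, 316 and 264 CPM in KD, against 224, 279 and 262 CPM in control (log2 fold change 0.16, 95% interval 0.00045 to 0.31, edgeR adjusted p = 0.133). S100A11, a partner of annexin A1, had 96.7, 110 and 93.3 CPM in KD, against 73.3, 99.0 and 97.7 CPM in control (0.15, adjusted p = 0.215 by edgeR). For both of these, control library 1 was the lowest of the 6 LoVo libraries and KD library 2 the highest. The called members S100P (33.2 and 118 CPM), S100A10 (199 and 293 CPM) and S100A14 (131 and 249 CPM) had the same extremes. S100A16 did not, with control library 3 lowest (145 CPM) and KD library 1 highest (180 CPM). The summed level of all members was also lowest in control library 1 (845 FPKM) and highest in KD library 2 (1358 FPKM). The calls of S100P, S100A10 and S100A14 held when either library was left out.

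The low members rested on few reads. S100A13, which takes part in the release of FGF1, had 75, 82 and 61 counts in KD libraries, against 47, 57 and 55 in controls. These did not overlap, but the log2 fold change of 0.44 had an interval from 0.035 to 0.84 and an edgeR adjusted p of 0.101. S100A2, a nuclear S100 protein of stratified epithelium known to bind p53, had 35 to 57 counts in KD and 37 to 48 in control (log2 fold change 0.07, interval -0.42 to 0.55). S100A3, a protein of the hair cuticle, had 8 to 17 counts in KD and 13 to 25 in control, and its interval from -1.52 to 0.22 leaves room for changes in both directions. S100A3 lies wholly inside the span of S100A4 on the same strand, and S100A13 overlaps S100A1 on the opposite strand over 3435 bases. The sources used here do not say how reads in such overlaps were counted, and the values of S100A3, S100A4 and S100A13 are uncertain to that extent. The S100A11 pseudogenes S100A11P6 and S100A11P1 held 3 and 2 counts over all 12 libraries, and the others held 0.

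The comparison within HCT116 asked the same of SLERT OE. None of the 9 members tested was called by edgeR, beside 0.914% of the 15980 genes tested (0.507% higher and 0.407% lower). DESeq2 also called 0 of them, beside 283 of all genes. The intervals of S100A4, S100A6, S100A10, S100A11, S100A14 and S100A16 lay within -0.23 and 0.24 on the log2 scale. S100A14, the member with the smallest p in LoVo, measured 104, 111 and 123 CPM in OE, against 114, 117 and 130 CPM in control. The groups overlapped and the log2 fold change was -0.10 (SE 0.066, edgeR adjusted p = 0.533). S100A10 measured 98.8, 101 and 108 CPM in OE, against 91.1, 90.6 and 103 CPM in control (0.11, SE 0.063, edgeR adjusted p = 0.445). The low members S100A2, S100A3 and S100A13 had wider intervals, the widest being that of S100A13 from -0.59 to 0.78.

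S100P was below the filter in HCT116. It had 1, 1 and 0 counts in the OE libraries, against 3, 5 and 2 in the controls, or 2 against 10 in all. The ratio of OE to control, scaled by total counts, was 0.209 with an exact 95% counting interval from 0.0222 to 0.980. This interval rests on counts pooled over the libraries of each group, so it takes in counting error alone and not the spread between libraries. No molecular identifiers tell copies of 1 molecule apart, so it may also be too narrow for counting error. A two-sided exact permutation test of the CPM values had p = 0.1, which is the smallest that 3 libraries against 3 allow.

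**Figure D3:**
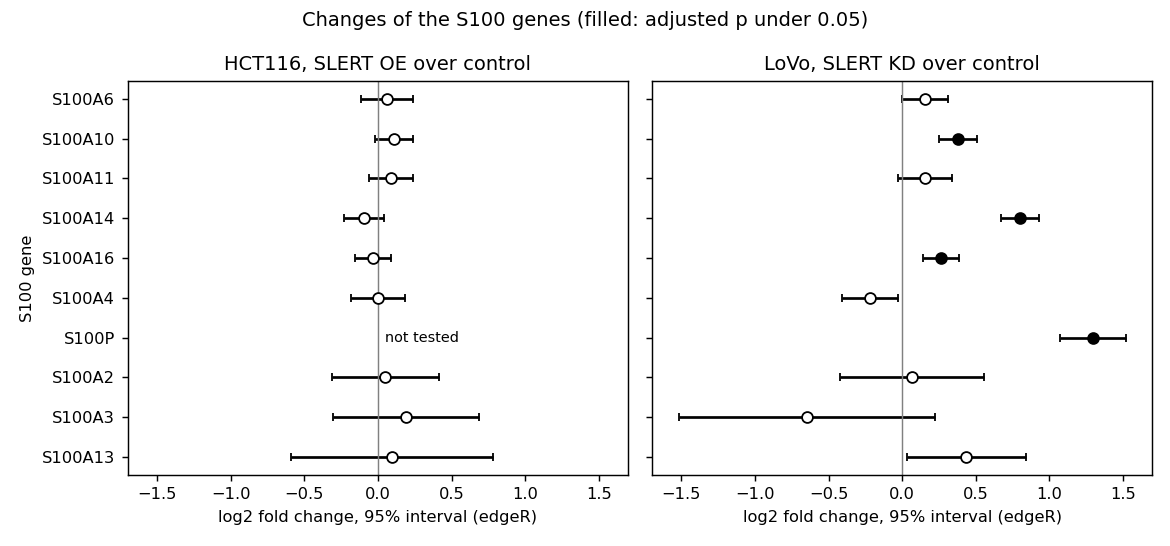
Log2 fold changes of the S100 genes with 95% intervals from edgeR, in HCT116 for OE over control and in LoVo for KD over control; filled points have an adjusted p under 0.05. The 4 filled points are all in LoVo and all above 0, led by S100P at 1.29 and S100A14 at 0.80, while S100P was not tested in HCT116.

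Whether the manipulations acted differently was tested on all 12 libraries, as the change with more SLERT by label in HCT116 (OE minus control) minus that in LoVo (control minus KD). S100A14 differed by 0.70 on the log2 scale (SE 0.093, edgeR adjusted p = 6.14e-06) and S100A10 by 0.49 (SE 0.089, adjusted p = 0.00040 by edgeR). They are 2 of 10 members, or 20%, beside 14.6% of the 18199 genes tested (6.94% with a positive and 7.61% with a negative difference). Behind the S100A14 value stand log2 fold changes of -0.10 for OE over control in HCT116 and 0.80 for KD over control in LoVo, and behind that of S100A10 they are 0.11 and 0.38, higher in the manipulated arm of both lines. The sign of the difference therefore rests on the KD label. With LoVo taken as KD minus control, chosen after seeing the data, it was -0.91 for S100A14 (edgeR adjusted p = 8.55e-08), -0.29 for S100A10 (adjusted p = 0.0340 by edgeR) and -0.31 for S100A16 (edgeR adjusted p = 0.0142), with 3 members called beside 11.6% of all genes tested. S100A16 did not pass (difference 0.23, edgeR adjusted p = 0.0647) but passed with DESeq2 (0.24, adjusted p = 0.0271). That made 3 members, beside 2611 of all genes called, against 2648 in the main fit. S100P did not pass, and its few HCT116 counts gave an interval from -2.96 to 1.45. Without HCT116 control 3, S100A6 (0.40, edgeR adjusted p = 0.0176) and S100A16 (0.27, adjusted p = 0.0390) passed as well. That made 4 members, beside 2543 of all genes called.

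The lines themselves differed more than the arms. In HCT116 control against LoVo control, which shares its LoVo libraries with the KD comparison, 7 of 10 members were called, 3 higher and 4 lower in HCT116. This is 70%, beside 76.6% of the 18199 genes tested (38.7% higher and 37.9% lower in HCT116), and so close to the background. S100P had 10 counts over the HCT116 controls and 1922 over the LoVo controls, with a log2 fold change of -7.61 (SE 0.25, edgeR adjusted p = 1.32e-21), or 196-fold lower in HCT116. S100A10 was lower in HCT116 (log2 fold change -1.07, SE 0.064), at 94.3 ± 6.66 FPKM in HCT116 control and 213 ± 14.3 FPKM in LoVo control. S100A13 (-1.07, SE 0.26) and S100A16 (-0.22, SE 0.059) were lower in HCT116 too.

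S100A2 was 2.25-fold higher in HCT116 control than in LoVo control (log2 fold change 1.17, SE 0.21), at 3.98 ± 0.742 and 1.90 ± 0.274 FPKM (SD, n = 3 each). S100A3 (1.05, SE 0.31) and S100A4 (0.53, SE 0.097) were higher in HCT116 as well. S100A4 stood at 48.6 ± 6.17 FPKM in HCT116 control, against 36.2 ± 3.78 FPKM in LoVo control. S100A6 (0.05, edgeR adjusted p = 0.643), S100A11 (-0.06, adjusted p = 0.545 by edgeR) and S100A14 (-0.07, edgeR adjusted p = 0.339) did not pass. Without LoVo control 1, S100A11 passed (-0.19, edgeR adjusted p = 0.0499), and on log2(FPKM + 1) S100A14 passed (-0.17, limma adjusted p = 0.0499).

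The members called in LoVo were not all next to each other in the cluster. S100A10, at an end of the cluster, and S100A16 and S100A14, near the other end, were called, while S100A11, 53.5 kb from S100A10, and the members between were not, nor was S100A13 beyond S100A14. S100A13, on 47 to 82 counts per LoVo library, had a larger log2 fold change (0.44) than S100A10 (0.38) and S100A16 (0.26). S100A2 and S100A3 had 8 to 57 counts per LoVo library. A missing call of these low members does not show that they were unchanged. Among 13 other protein-coding genes that start within 100 kb of a member, 11 were tested in LoVo and 1 was called, CHTOP, which encodes a chromatin and RNA export protein (log2 fold change 0.23, SE 0.068, edgeR adjusted p = 0.0146). That call was lost without LoVo control 1 (0.17, edgeR adjusted p = 0.120) and in the 3 log2 FPKM fits (limma adjusted p from 0.132 to 0.188). Those FPKM fits called 0 neighbours, beside 1061 to 1686 of all genes. The number of neighbours called was 2 with DESeq2 and in the fit of all 12 libraries, beside 3356 and 4425 of all genes. The 1 call by edgeR is 9.09% of the neighbours tested, beside 26.3% of all genes tested, and their median log2 fold change was -0.0011. In HCT116 with OE, 0 of the 11 neighbours tested were called by edgeR, beside 0.914% of all genes tested. DESeq2 also called 0 of these neighbours there, beside 283 of all genes.

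**Figure D4:**
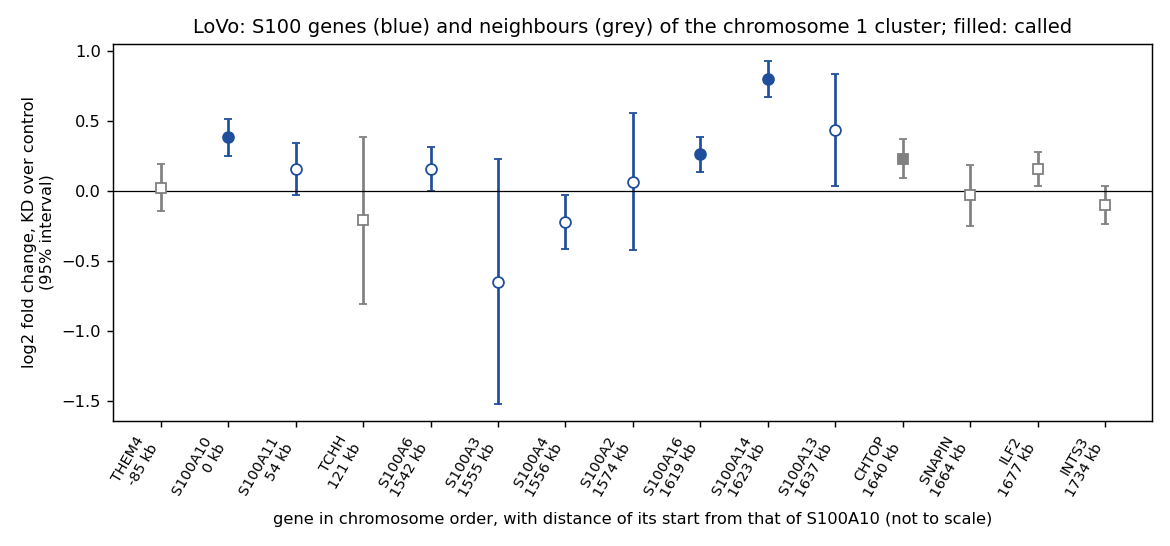
Log2 fold change in LoVo, KD over control, with 95% intervals, for the 9 S100 genes of chromosome 1 (circles) and the tested neighbours on that chromosome (squares), in chromosome order; labels give the distance of each start from that of S100A10 and the spacing is not to scale. Filled symbols passed the test: S100A10 (0.38), S100A16 (0.26), S100A14 (0.80) and the neighbour CHTOP (0.23).

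Other S100 genes were mostly silent in these lines. Of 10 further ones looked at, S100A7A, S100A8, S100A9 and S100A12 had no read in any of the 12 libraries (a 0 is compatible with up to 3 counts per library), S100B, S100G and S100Z had at most 1 count over the libraries of any group, and S100A7 had at most 9. S100A8 and S100A9, which form calprotectin, are known mainly from myeloid cells. S100A1, a regulator of calcium handling in muscle, stood at 2.22 ± 0.317 FPKM in LoVo KD and 1.97 ± 0.0887 FPKM in LoVo control (log2 fold change 0.20, edgeR adjusted p = 0.398), and at 0.327 ± 0.0854 and 0.396 ± 0.129 FPKM in HCT116 OE and control (SD, n = 3 each). S100A5 had 146 counts over the HCT116 OE libraries and 114 over the HCT116 controls (log2 fold change 0.44, edgeR adjusted p = 0.462), and 15 over LoVo KD and 27 over LoVo control, too few for the test there.

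The known partners of S100 proteins moved in both directions in LoVo. Of 21 partner and receptor genes, 10 were called, 3 higher and 7 lower in KD, which is 47.6% beside 26.3% of all genes tested, with a median log2 fold change of -0.12. ANXA5 (log2 fold change 0.29, SE 0.072) and ANXA7 (0.21, SE 0.070), calcium-dependent membrane-binding annexins, and IQGAP1, a scaffold of the cell cortex (0.27, SE 0.054), rose. AHNAK, a large scaffold bound by the S100A10 and annexin A2 complex, fell to 1260 ± 51.1 CPM in KD, against 1505 ± 104 CPM in control (-0.26, SE 0.056). MYH9, the non-muscle myosin heavy chain bound by S100A4 (-0.25, SE 0.066), and BSG, which encodes the surface receptor basigin (-0.27, SE 0.055), fell too.

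AGER, which encodes RAGE, the receptor of S100P, fell to 8.36 ± 1.00 CPM in LoVo KD, against 11.1 ± 1.24 CPM in LoVo control (log2 fold change -0.42, SE 0.14, edgeR adjusted p = 0.0287). The call was lost without KD 2 (-0.33), control 1 (-0.34) or control 2 (-0.40), as well as with DESeq2 (-0.41). MDM2, the ubiquitin ligase of p53 (-0.45, SE 0.065), and CAPN1, a calpain protease (-0.20, SE 0.068), and PPP5C, a phosphatase (-0.20, SE 0.069), fell as well. The calls of CAPN1 and PPP5C were lost without KD 2 (-0.11 and -0.16), KD 3 (-0.23 and -0.18), control 1 (-0.16 and -0.15) or control 3 (-0.19 and -0.20), and that of ANXA7 without KD 3 (0.16), control 1 (0.21), control 2 (0.22) or control 3 (0.19). ANXA7 was also lost with DESeq2 (adjusted p = 0.0507) and without a filter (edgeR adjusted p = 0.0550). The number of partner genes called was 10 in the main fit, beside 4278 of all genes, and 6 without control 1, beside 2809 of all genes. With limma on log2(FPKM + 1), log2(FPKM + 0.1) and log2(FPKM + 1) without a filter it was 4, 4 and 3, beside 1607, 1686 and 1061 of all genes. ANXA5, ANXA7, MYH9, AGER, CAPN1 and PPP5C lost their calls in all 3 of these fits, and AHNAK in the one without a filter. EZR, which encodes ezrin, a partner of S100P, had 736 ± 53.8 CPM in KD and 780 ± 13.7 CPM in control (edgeR adjusted p = 0.296). In HCT116, CACYBP, which encodes the calcyclin-binding protein, was the 1 partner of 20 tested that was called, or 5% beside 0.914% of all genes tested, at 177 ± 12.7 CPM in OE and 144 ± 5.83 CPM in control (log2 fold change 0.30, SE 0.059, edgeR adjusted p = 0.0111). That call was lost without control 1 (0.27) or OE 2 (0.24) and in the 3 FPKM fits (limma adjusted p from 0.309 to 0.435).

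The genes whose pattern over the 12 libraries lay closest to that of a member were sought by the root mean square difference of log2(CPM + 1), centred per gene, among 10188 genes with a mean of at least 10 CPM. For S100A14 they were EIF1, a translation initiation factor (0.10), SLC44A1, a choline transporter (0.117), and DLGAP1-AS2, a non-coding RNA (0.118). For S100A6 they were OCIAD2 (0.055), RPL27, a ribosomal protein (0.058), and ATP5MJ, a small ATP synthase subunit (0.059). These distances describe likeness over libraries that share their line and their treatment.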

How the data were processed

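RNA-seq of 12 libraries was used, 3 per group. Alignment used HISAT2 2.1.0 and the GRCh38 build, as the submitters' processing notes name them. The sources used here name no read counter, strand setting or annotation release. The deposited count table holds raw whole-number counts, and the deposited FPKM table holds values that the authors scaled by gene length and column total. The vector columns were assigned to the HCT116 control by their header only, without a replicate number. The number of sample columns not used was 0. Nothing was left out.

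Counts were tested per line with edgeR 4.0.16 (R 4.3.3; quasi-likelihood F test, TMM factors, filterByExpr, Benjamini-Hochberg over all genes tested, calls at an adjusted p under 0.05), and all 12 libraries were fitted together for the contrasts between lines. CPM are TMM-normalised within a line, log2 fold changes come with the SE and 95% interval of the fit, and FPKM served to compare levels between genes. Counts of libraries in 1 group differed beyond sampling noise (chi-square over its degrees of freedom 2.48 to 7.33), so no library was taken for a copy of another. This check does not tell separate cultures from repeat preparations. Scripts were tested on simulated data. Alternatives were DESeq2 1.42.0, other factors, no filter, limma 3.58.1 on log2 FPKM (pseudocounts 1 and 0.1; mean FPKM of at least 0.1), a replicate block and leaving out each library.

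Names and positions came from GENCODE v29 and a gene name table, which gave a symbol to 42316 of 62656 identifiers. Named by rule were all members, other S100 genes that passed the filter, partners and neighbours called in LoVo or HCT116, ANXA2 and AHNAK in any case, SNORA5C and TBRG4, and the 3 closest patterns of the member with the smallest p in LoVo and of that with the highest FPKM. EZR and the markers were named after their values were seen. The members and lists were chosen with earlier results of these data known.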

Additional observations from a re-analysis of the deposited data

Results flagged for a closer look

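The change of S100A14 and of S100A10 differed between the lines by a test of the difference itself, and the sign of that difference rests on the KD label. For S100A14, the change with more SLERT by label was 0.70 higher on the log2 scale in HCT116 than in LoVo (edgeR adjusted p = 6.14e-06), and over the other tools, scalings, filters and left-out libraries the adjusted p stayed at or below 0.00868. For S100A10 the difference was 0.49 (edgeR adjusted p = 0.00040, at most 0.0335 over the same settings). With LoVo taken as KD minus control, an alternative chosen after seeing the data, the differences were -0.91 for S100A14 (edgeR adjusted p = 8.55e-08) and -0.29 for S100A10 (edgeR adjusted p = 0.0340). In both genes the 3 LoVo KD libraries lay above the 3 LoVo controls, whereas the HCT116 arms overlapped. SNORA5C was raised by OE in HCT116 (log2 fold change 6.97), and the LoVo KD label came with no measured fall (-0.02, edgeR interval from -0.92 to 0.87). With 9 to 19 counts per LoVo control library, a fall within that interval cannot be told from no change. By this readout the change was larger with OE, while the size of the knockdown is not known. What part unequal manipulations have in the difference between the lines was not tested.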

How the results depend on the processing

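The calls of S100P, S100A14 and S100A16 in LoVo held in all 15 alternatives, with log2 fold changes from 1.14 to 1.41, 0.76 to 0.85 and 0.23 to 0.29, and that of S100A10 in 14 of 15. With a replicate block 7 members were called in LoVo, S100A4 (-0.22, edgeR adjusted p = 0.0299), S100A6 (0.16, 0.00736) and S100A11 (0.16, 0.0332) being added, while the count of all genes called became 5588, or 34.4% of those tested. Same-numbered LoVo libraries deviated together with correlations of 0.069, 0.085 and 0.016, and each library correlated best with its own number, a hint from the data, while no label pairs them. The block was not run for HCT116 or for contrasts between lines, whose control columns carry no replicate number. In HCT116 no alternative called a member. Without each library in turn, the members whose effect differed between lines numbered 2 to 4, beside 1787 to 3108 of all genes called. S100P turned sign in that contrast on log2(FPKM + 1), at 0.88 against -0.76, and was called there (limma adjusted p = 0.0368; 0.0633 without a filter), where the pseudocount exceeds its HCT116 level. With LoVo taken as KD minus control (added after seeing the data), S100A14 (-0.91), S100A10 (-0.29) and S100A16 (-0.31) turned sign and were called. That setting only reverses the LoVo term of the contrast, so the turn of sign follows from the fold changes within the lines and is no separate evidence.

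The count of all genes called in LoVo, 4278, was 1607 on log2(FPKM + 1), 1686 on log2(FPKM + 0.1) and 1061 on log2(FPKM + 1) without a filter, and 2769 to 4813 without single libraries (2809 without control 1 and 2769 without control 3). In HCT116 the count of 146 was 283 with DESeq2, 256 without a filter, 3, 5 and 3 in the same FPKM fits, and 37 to 287 without single libraries (37 without control 1 or OE 3, 38 without control 2, 43 without OE 2 and 287 without control 3). For the difference between lines, 2648 became 1739, 1519 and 1348 in the FPKM fits. The causes were not tested. Depth limits S100P in HCT116, and S100A2, S100A3 and S100A13 in both lines, which rest on 8 to 119 counts per library.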
